A study of Mus musculus with 15 samples.

Results

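Iron handling was described in fetal mouse preSertoli cells through 9 genes, chosen by name among the 27697 gene symbols of the RNA-seq table. They are the plasma iron carrier transferrin (Trf), its receptor (Tfrc), the endosomal iron reductase Steap3, the iron importer Slc11a2, the ferritin heavy chain Fth1, the ferritin light chain rows Ftl1 and Ftl2, the iron exporter Slc40a1 (ferroportin) and the iron regulatory protein Ireb2. All 9 symbols were found, each in 1 row. The choice was made with earlier results of these data known.

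The series holds 15 mouse samples, of which 3 RNA-seq libraries are used here. Each library came from a pool of sorted preSertoli cells, the supporting cells that surround germ cells in the developing testis cords, taken at embryonic stage E15.5 from C57BL/6J x CD-1 (F1) embryos. About 165 embryos went into the 3 pools. No second cell type, stage or treatment was measured by RNA-seq, so the levels are a description of 1 group. Open chromatin and H3K27ac lists of the series were not used here, because their positions are in the mm9 build and no gene positions of that build were at hand.

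Most animal cells take up iron as transferrin bound to its receptor at the cell surface. In the acid endosome iron is released, reduced by STEAP3 and moved to the cytosol by SLC11A2, and the surplus is stored inside ferritin shells made of heavy and light chains or exported by ferroportin. Iron regulatory proteins bind hairpins called iron responsive elements in several of these mRNAs, where they block translation of the ferritins and ferroportin and stabilise the receptor mRNA when iron is scarce. In the adult testis, Sertoli cells are known to secrete transferrin to supply germ cells behind the blood-testis barrier.

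The libraries held 47.8, 56.0 and 51.7 M expected counts in libraries 1, 2 and 3. Their Pearson correlations across the 13036 expressed symbols, on log2(CPM + 1), ran from 0.994 to 0.997, where genes are not independent replicates. All 10 Sertoli cell markers checked were expressed, from Dmrt1 at 127 ± 0.900 CPM to Clu at 3172 ± 259 CPM (every ± is an SD over n = 3 libraries). CPM stands for counts per M counts of the library. Markers of fetal Leydig cells, the steroid-producing cells outside the cords, were also expressed in 6 of 6 cases, and their summed level was 1761, 2111 and 1292 CPM in libraries 1, 2 and 3. Their part in the levels below was not tested. In such pools fewer cells of a type and less RNA per cell cannot be told apart.

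Expression was called at 1 CPM or more in all 3 libraries. All 9 iron handling genes passed, against 47.1% of all symbols. The Ftl2 row is counted among them although it shares reads with Ftl1, as described below. The 9 genes were chosen with earlier results of these data known, so the share that passed is a description. The median of their mean levels was 84.4 CPM, against 0.712 CPM over all symbols and 32.6 CPM over the expressed symbols, and 7 of the 9 lay above that last median. CPM is not divided by transcript length, which was not at hand, so no order of expression between the genes is drawn from these levels. Percentiles below place a gene's mean on the CPM scale with that limit.

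**Figure D1:**
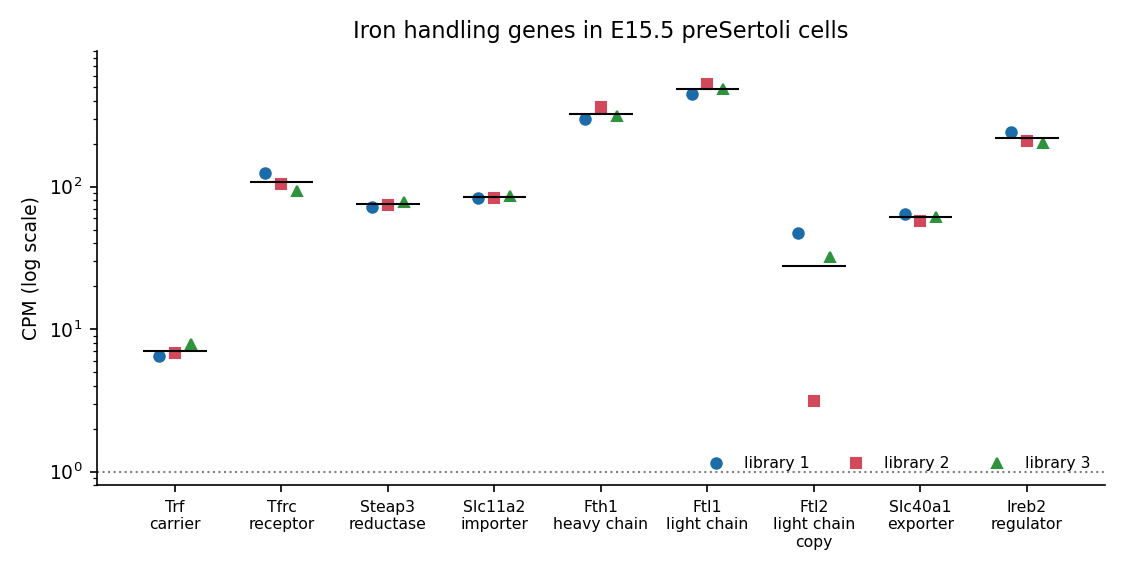
Level of each iron handling gene in CPM (log scale) in the 3 E15.5 preSertoli libraries, ordered by role. Points are libraries, black lines are means and the dotted line marks 1 CPM. The Trf points lie between 6.50 and 7.82 CPM, and the Ftl2 point of library 2 stands at 3.15 CPM, far below those of libraries 1 and 3.

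Transferrin, the carrier, was detected at a low level on the CPM scale. Trf stood at 6.50, 6.83 and 7.82 CPM in libraries 1, 2 and 3, a mean of 7.05 ± 0.688 CPM. Library 3 was the highest, but the 95% exact Poisson intervals of the libraries, 5.80 to 7.26 CPM in library 1, 6.16 to 7.55 CPM in library 2 and 7.08 to 8.62 CPM in library 3, all overlapped. These intervals cover counting error only. The mean lay at the 62.3rd percentile of all symbols and the 19.8th percentile of expressed symbols. Hepatocytes, which secrete transferrin, had 1 of 6 measured markers expressed, Ahsg at 8.42 ± 0.493 CPM. Albumin (Alb), named after its value was seen, stood at 0.258 ± 0.0740 CPM. The summed level of all 6 was 8.83, 9.42 and 9.87 CPM in libraries 1, 2 and 3, the same order of libraries as Trf. Most of this sum was Ahsg, at 7.91, 8.48 and 8.89 CPM. Of the markers under the threshold, Alb, Ttr and Fgb were highest in library 1, and Afp and Apoa1 in library 3. The part of hepatocytes in the level of Trf was not tested.

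The relatives of transferrin and other secreted iron or heme carriers were under the threshold in all cases, 0 of 6. The highest was melanotransferrin (Mfi2) at 0.338 ± 0.0573 CPM. Lactoferrin (Ltf), an iron-binding protein of milk and neutrophils, followed at 0.210 ± 0.0752 CPM, and the heme carrier hemopexin (Hpx) at 0.174 ± 0.0139 CPM. The inhibitor of carbonic anhydrase 1300017J02Rik, a transferrin relative, stood at 0.148 ± 0.00605 CPM. The siderophore binder Lcn2 (0.0978 ± 0.0702 CPM) and haptoglobin Hp, which binds free hemoglobin (0.0571 ± 0.0148 CPM), completed the list.

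The symbols closest to Trf in level, by the Euclidean distance of log2(CPM + 1) over the 3 libraries, were Cbx7 at 0.0282, Zfp94 at 0.0369 and Ikbke at 0.0416. Their means were 7.05 ± 0.591, 6.95 ± 0.641 and 6.92 ± 0.635 CPM. With 1 group of libraries this likeness is of level alone.

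The uptake machinery of transferrin-bound iron was expressed. Tfrc, the receptor that carries iron-loaded transferrin into the cell, stood at 125, 104 and 93.0 CPM in libraries 1, 2 and 3, a mean of 107 ± 16.2 CPM. Library 1 was the highest and library 3 the lowest, and their Poisson intervals did not overlap (122 to 128 CPM in library 1, 90.4 to 95.7 CPM in library 3). The coefficient of variation (CV, the SD as a percent of the mean) was 15.1%, against 1.35% expected from counting alone. The spread of Tfrc between pools was thus larger than that of read sampling. It rested in part on library 1, without which the CV was 7.66%.

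Steap3, which reduces endosomal iron, stood at 72.6, 74.8 and 78.6 CPM in libraries 1, 2 and 3, a mean of 75.3 ± 3.05 CPM. Slc11a2, which moves the reduced iron out of the endosome, stood at 83.5, 83.8 and 85.9 CPM, a mean of 84.4 ± 1.29 CPM. Steap3 was highest in library 3 and lowest in library 1, where the Poisson intervals did not overlap (76.2 to 81.0 CPM in library 3, 70.2 to 75.02 CPM in library 1), and its CV of 4.05% exceeded the 1.61% of counting. The CV of Slc11a2, 1.52%, was the size of its counting error (1.52%) and lay at the 3.53rd percentile of expressed symbols.

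Other genes linked to iron uptake, not all of them routes of entry, were covered by a list of 12, of which 8 were expressed. Lrp1, a scavenger receptor that takes up heme bound to hemopexin among many ligands, stood at 298 ± 59.4 CPM. Slc39a14, an importer of iron not bound to transferrin, stood at 45.3 ± 1.95 CPM. Mcoln1, an endosomal and lysosomal channel that releases iron, stood at 32.1 ± 3.24 CPM. The other 4 genes were under the threshold. They included the second transferrin receptor (listed as Trfr2) at 0.160 ± 0.0137 CPM and the reductase Steap4 at 0.316 ± 0.131 CPM. The importer Slc39a8 (0.786 ± 0.154 CPM) and hemojuvelin (listed as Hfe2, 0.161 ± 0.0164 CPM) were also under it. These 4 are named after their values were seen.

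Ferritin mRNAs were high on the CPM scale. Fth1, whose product oxidises iron for storage, stood at 301, 362 and 314 CPM in libraries 1, 2 and 3, a mean of 326 ± 32.4 CPM at the 98.2nd percentile of all symbols. Ftl1, which promotes the mineral core, stood at 450, 526 and 489 CPM, a mean of 488 ± 38.3 CPM at the 99.1st percentile. Library 2 was the highest and library 1 the lowest for both chains.

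The upstream sequences of the ferritin genes are shown because Ftl1 and Fth1 encode the partner chains of ferritin and had the same order of libraries. They are 250 bases before the RefSeq start in the GRCm38.p6 build, 5′ to 3′ on the gene's strand, with capitals for GC boxes (GGGCGG or its reverse complement CCGCCC) and CCAAT boxes (CCAAT or ATTGG).
Ftl1 (chr7:45459887-45460136, minus strand): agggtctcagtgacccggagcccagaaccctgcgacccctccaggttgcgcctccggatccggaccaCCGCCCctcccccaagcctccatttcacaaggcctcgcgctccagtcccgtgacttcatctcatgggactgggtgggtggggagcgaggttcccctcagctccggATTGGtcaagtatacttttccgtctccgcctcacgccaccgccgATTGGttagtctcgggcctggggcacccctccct
Fth1, the downstream of 2 listed starts (chr19:9982396-9982645, plus strand): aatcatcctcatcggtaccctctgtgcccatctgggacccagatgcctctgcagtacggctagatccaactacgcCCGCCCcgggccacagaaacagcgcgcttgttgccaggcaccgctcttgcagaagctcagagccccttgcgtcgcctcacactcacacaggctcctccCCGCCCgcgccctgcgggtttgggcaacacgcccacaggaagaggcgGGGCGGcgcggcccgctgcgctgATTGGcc

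The Ftl1 window held 1 GC box and 2 CCAAT boxes, and the Fth1 window shown held 3 GC boxes and 1 CCAAT box. The window of the upstream Fth1 start held 0 GC boxes and 0 CCAAT boxes. Neither word overlaps the other in these windows. Over all 32851 RefSeq promoter windows of this length, 32.7% held a GC box and 33.8% a CCAAT box, so both words are common. Both words were chosen after the sequences were seen, and a match is a description of the letters. Promoter entries were matched for 5 of the 9 genes (Tfrc, Fth1, Ftl1, Steap3 and Ireb2), while Trf, Slc11a2, Slc40a1 and Ftl2 had none in the table used.

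Ftl2 had the widest spread of the 9 genes. It stood at 47.6, 3.15 and 32.0 CPM in libraries 1, 2 and 3, a mean of 27.6 ± 22.6 CPM and a 15.1-fold gap between the highest and the lowest library. Its CV of 81.8% was exceeded by 1 of the 13036 expressed symbols. Without library 1 the mean was 17.6 CPM, and without library 2 it was 39.8 CPM. RefSeq in the GRCm38.p6 assembly lists Ftl2 as a synonym of a pseudogene, Ftl2-ps.

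The recovered counts showed that Ftl1 and Ftl2 shared reads. RSEM divides a read that maps to several genes, which leaves fractional expected counts. Ftl1 had 21485.03, 29487.47 and 25270.19 expected counts in libraries 1, 2 and 3, and Ftl2 had 2275.97, 176.53 and 1654.81. Their sums were 23761, 29664 and 26925, whole numbers in all 3 libraries within 0.005 of a count. Among 8008 rows with fractional counts, Ftl2 was the only row that completed Ftl1 to whole numbers in all 3 libraries, and Ftl1 the only one for Ftl2.

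As 1 quantity, the light chain varied less. Ftl1 and Ftl2 together stood at 497, 530 and 521 CPM, a mean of 516 ± 16.6 CPM. The CV of the sum was 3.22%, against 7.85% for Ftl1 alone and 81.8% for Ftl2 alone. Ftl2 took 9.58%, 0.595% and 6.15% of the light chain reads in libraries 1, 2 and 3. The level of Ftl2 and its differences between libraries are therefore uncertain as measures of that locus.

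**Figure D2:**
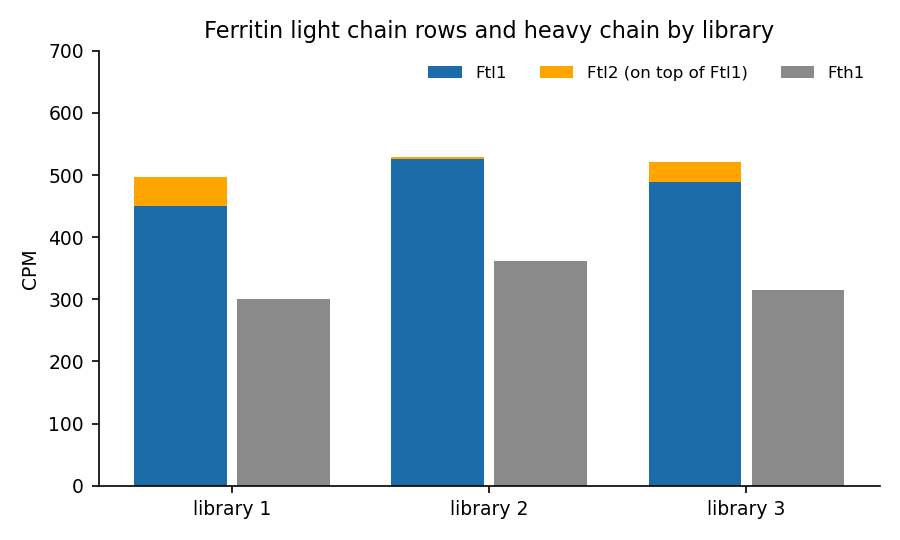
Ferritin light chain rows (Ftl2 stacked on Ftl1) and heavy chain in CPM in each library. The stacked light chain bars reach 497, 530 and 521 CPM, while the Ftl2 part is 47.6 CPM in library 1 and 3.15 CPM in library 2.

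The ratio of light to heavy chain reads was 1.65, 1.46 and 1.66 in libraries 1, 2 and 3 with both light chain rows, a mean of 1.59 ± 0.112. It was lowest in library 2, where Fth1 was highest. With Ftl1 alone it was 1.50, 1.45 and 1.56. The size of the ratio depends on transcript lengths, whereas its change between libraries does not.

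Storage partners of ferritin were expressed in 6 of 7 cases. Pcbp2 and Pcbp1, RNA-binding proteins that also deliver iron to ferritin, stood at 444 ± 38.0 and 269 ± 31.1 CPM. Herc2, the ubiquitin ligase that marks the ferritinophagy receptor NCOA4 for degradation, stood at 272 ± 26.7 CPM. The mitochondrial ferritin Ftmt had a count of 0 in all 3 libraries.

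Export was represented by ferroportin and its helpers. Slc40a1, the only known cellular iron exporter of vertebrates, stood at 64.5, 57.8 and 61.1 CPM in libraries 1, 2 and 3, a mean of 61.1 ± 3.31 CPM. Library 1 was the highest and library 2 the lowest, and the CV of 5.41% exceeded the 1.78% of counting. Macrophages export iron through ferroportin too. Their markers were expressed in 3 of 10 cases, led by Mrc1 at 8.74 ± 0.445 CPM, and summed to 15.1, 16.2 and 14.3 CPM in libraries 1, 2 and 3. Their part in the level of Slc40a1 was not tested.

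Of 8 other genes of export and ferroxidase function, 6 were expressed. Flvcr2, listed under its older symbol Mfsd7c and known as a choline and heme transporter, stood at 80.0 ± 3.47 CPM, and the efflux pump Abcg2 at 40.6 ± 2.94 CPM. Hephaestin (Heph), a ferroxidase that works beside ferroportin, stood at 36.2 ± 1.51 CPM, and its circulating relative ceruloplasmin (Cp), named after its value was seen, at 11.6 ± 0.637 CPM. Hephl1 stood at 0.155 ± 0.0504 CPM. The hormone hepcidin (Hamp), which degrades ferroportin, had a count of 0 in all 3 libraries. The second mouse hepcidin gene, Hamp2, named after its values were seen, stood just above the threshold at 1.05, 1.16 and 1.41 CPM.

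Ireb2, which encodes the iron regulatory protein IRP2, stood at 241, 211 and 202 CPM in libraries 1, 2 and 3, a mean of 218 ± 20.7 CPM at the 96.7th percentile of all symbols. As with Tfrc, library 1 was the highest and library 3 the lowest. Its CV of 9.51% exceeded the 0.944% of counting. The library order of ferritin was different, and 3 libraries of 1 group allow no test of whether these genes vary together.

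Of 12 genes of iron sensing and regulation, 10 were expressed. Neo1, a co-receptor of hemojuvelin, stood at 493 ± 12.2 CPM. The oxygen-regulated factor Hif1a stood at 464 ± 32.5 CPM, and Skp1a, a subunit of the ubiquitin ligase that removes IRP2, at 243 ± 13.1 CPM. Another 2 genes of this system are named after their values were seen. Aco1, which encodes the other iron regulatory protein, stood at 83.3 ± 2.08 CPM, and Fbxl5, the iron-sensing subunit of that ligase, at 120 ± 7.74 CPM.

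Messenger RNAs with a known iron responsive element were expressed in 10 of 10 cases, with a median of 82.6 CPM, and 5 of the 10 are members described above. The lowest of the list was Epas1, a hypoxia-inducible factor, at 10.6 ± 1.15 CPM, named after its value was seen.

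Across the 9 genes the spread between pools was mixed. The median CV was 9.51%, against 6.75% over expressed symbols. Slc11a2, Steap3 and Slc40a1 lay under that value, while Ftl1, Ireb2, Trf, Fth1, Tfrc and Ftl2 lay above it. Ftl1 and Ftl2 are counted separately here although they share reads. As 1 light chain quantity their CV was 3.22%, under the 6.75% of expressed symbols. By library, 4 genes were highest in library 1 (Tfrc, Ftl2, Slc40a1, Ireb2), 2 in library 2 (Fth1, Ftl1) and 3 in library 3 (Trf, Slc11a2, Steap3). Summed, Ftl1 and Ftl2 were highest in library 2. The highest and the lowest library were the same for 9 of 9 genes under each of 3 other scalings. The factors of these scalings, relative to library totals, ran only from 0.995 to 1.005, so they could change the order little.

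**Figure D3:**
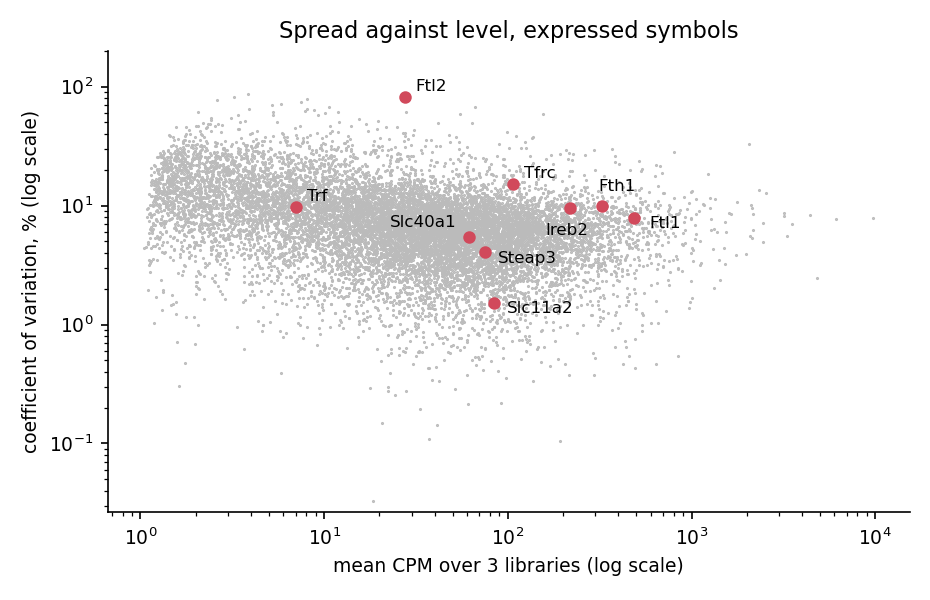
Coefficient of variation over the 3 libraries against mean CPM (both log scales) for the 13036 expressed symbols (grey), with the 9 iron handling genes in red. Ftl2 lies at 81.8%, above nearly all symbols, and Slc11a2 at 1.52%.

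Summed levels of marker lists also differed between the pools. The fetal Leydig marker sum was 102%, 123% and 75.1% of its mean in libraries 1, 2 and 3, and the Sertoli marker sum 100%, 105% and 94.3%. Single Sertoli markers are named here after their values were seen. Amh was 106%, 130% and 64.4% of its mean. Sox9, Sox8 and Dhh were also highest in library 2. Clu, Gata4, Dmrt1 and Aard were highest in library 3, and Gatm and Wt1 in library 1. Of 6 germ cell markers, 5 passed the threshold, and their sum was highest in library 1, at 118% of the mean. The endothelial sum was nearly equal in libraries 1 and 2, at 102.3% and 102.4% of its mean. The ferritin rows Fth1 and Ftl1 had the same highest library as the Leydig, Sertoli, erythroid, macrophage and endothelial sums, at 111% and 108% of their means. Both rows were lowest in library 1, where the Leydig sum was near its mean. Ftl1 shares reads with Ftl2. Their sum had a narrower spread than Ftl1 alone, from 497 CPM in library 1 to 530 CPM in library 2 (mean 516 CPM). Tfrc and Ireb2 were highest in library 1, as the germ cell sum was, at 116% and 111% of their means. Both were lowest in library 3, at 86.8% and 92.6%, whereas the germ cell sum was lowest in library 2, at 86.1%. The part of other cell types in the members' spread was not tested.

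**Figure D4:**
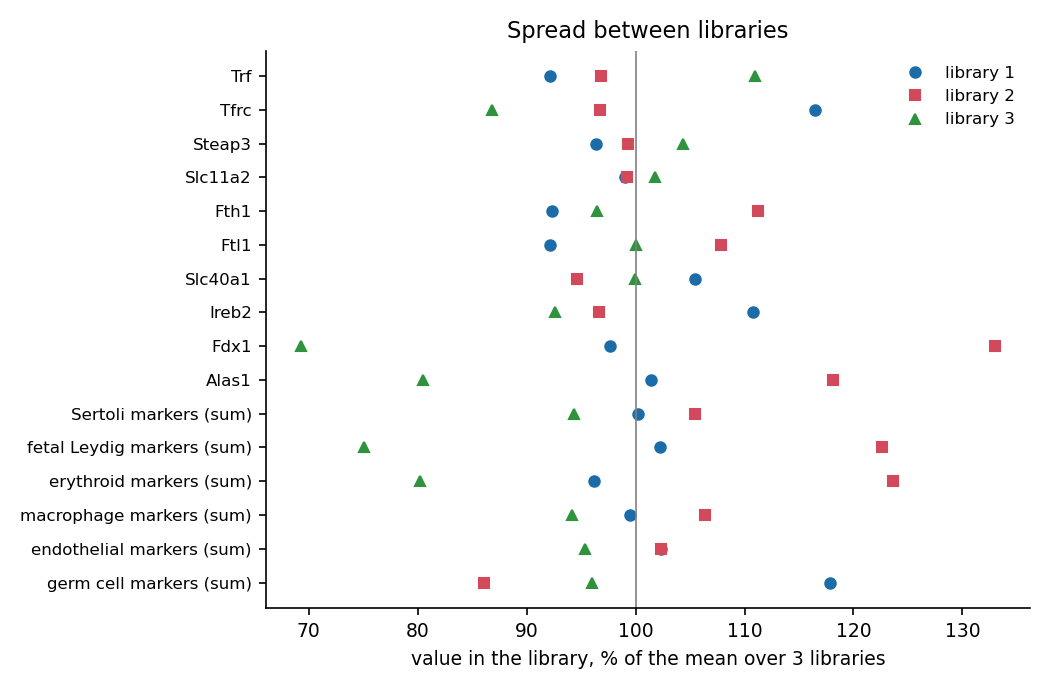
Value in each library as a percent of the mean over the 3 libraries, for 8 iron handling genes, Fdx1, Alas1 and the summed levels of marker lists. Library 2 reaches 123% for the fetal Leydig sum, and Ftl2, whose range runs from 11.4% to 173%, is left out so that the others can be read.

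Iron use was represented by the mitochondrial and iron-sulfur lists. All 18 genes of mitochondrial iron and iron-sulfur cluster assembly were expressed, with a median of 26.2 CPM. The chaperone Hspa9 stood at 501 ± 14.4 CPM, the ferredoxin reductase Fdxr at 291 ± 18.7 CPM and the assembly factor Isca1 at 61.8 ± 3.32 CPM. Fdx1, the ferredoxin that also passes electrons to mitochondrial steroid enzymes, is named after its values were seen. It stood at 41.8, 56.9 and 29.7 CPM in libraries 1, 2 and 3. The Leydig, Sertoli, erythroid, macrophage and endothelial marker sums all had this library order. For the endothelial sum, libraries 1 and 2 were nearly equal, at 32.07 and 32.09 CPM. Single Sertoli markers did not all have it: Amh, Sox9, Sox8 and Dhh did, while Clu, Gata4, Dmrt1, Aard, Gatm and Wt1 did not. The part of any cell type in the level of Fdx1 was not tested. All 9 genes of cytosolic iron-sulfur assembly were expressed, led by Mms19 (78.5 ± 4.50 CPM), Fam96a (73.7 ± 4.34 CPM) and Ciapin1 (50.6 ± 3.94 CPM).

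Over the 9 lists of other iron, iron-sulfur and heme genes, 74 of 89 were expressed, which is 83.1% against 47.1% of all symbols. Their median was 28.2 CPM. These lists were made of known genes of cell metabolism, so a share above that of all symbols is a description of the lists.

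**Figure D5:**
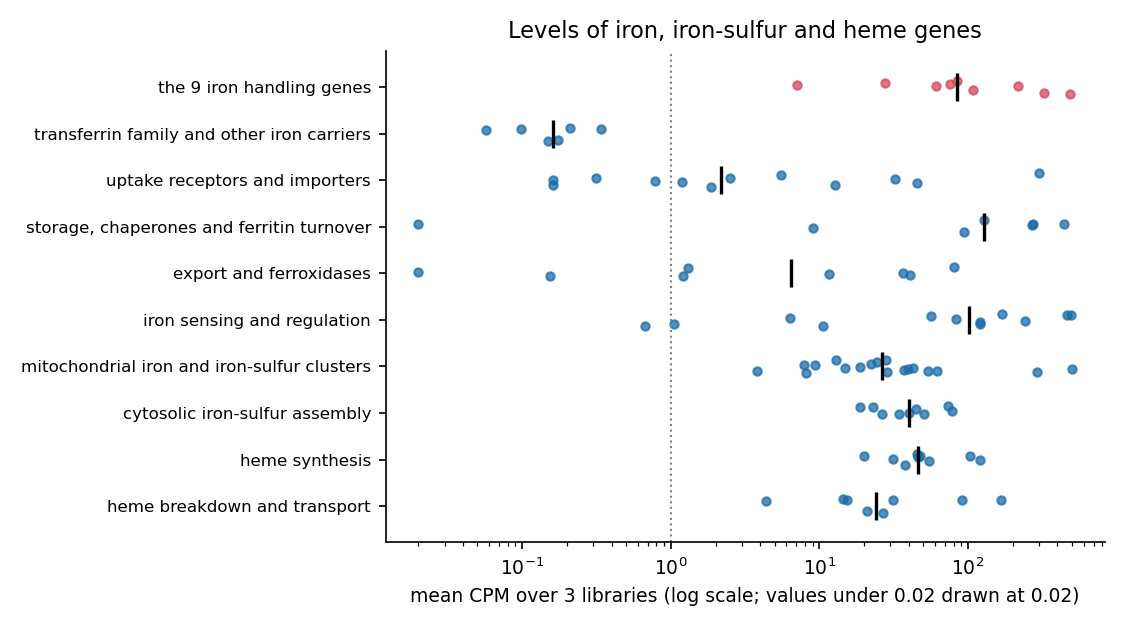
Mean CPM over 3 libraries (log scale) of each gene of the iron, iron-sulfur and heme lists, 1 point a gene, with black bars for list medians and a dotted line at 1 CPM, and genes at 0 drawn at the left edge. The relatives of transferrin and other carriers all lie under 1 CPM, while every gene of the mitochondrial, cytosolic iron-sulfur and heme lists lies above it.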

How the data were processed

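RNA was measured by RNA-seq (poly-A selected, 50 bp single-end reads) in 3 pools of E15.5 preSertoli cells, called biological replicates in the labels, and the 3 value columns carry only a number, so libraries are called 1, 2 and 3 after them. The tools named per the submitters' processing notes are RSEM 1.2.0, Bowtie 0.12.7 and CASAVA 1.8.2, with build mm9. The sources used here state neither the gene annotation nor any use of strand. The deposited values are square roots, per the file headers, of scaled expected counts. The scaling was worked out from the values as the 75th percentile of a library's own counts, among rows with a count in at least 1 library. Squares were whole hundredths of a read in 100% of values (tolerance 0.05 hundredths), which gave the expected counts and CPM, with no rounding to whole reads. Of 28427 rows, 426 copied another row of the same symbol, and the row of highest mean was kept for each symbol. The library totals that CPM is based on were summed before this step over all rows, copies included. Calculations used Python 3.11.15, numpy 2.4.6, pandas 2.3.3 and scipy 1.17.1, and the recovery of counts was tested on simulated data.

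No test between groups exists, since there is 1 group, and 3 values of a gene against 3 of another cannot give an exact p under 0.1. The members and gene lists were chosen with earlier results of these data known. Named genes were the 9 members, the 3 highest of each other list, genes under 1 CPM in lists of 8 or fewer, the highest marker of a cell type and those at 0, and the 3 symbols nearest to Trf. Symbols absent from the table were looked up by their older names in RefSeq (5 matched). Counting intervals are exact Poisson at 95% on expected counts. DNase-seq and H3K27ac lists were not used here. Antisense or overlapping genes may share reads with those named. Some genes that the naming rule selects are not reported here.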

Additional observations from a re-analysis of the deposited data

How the results depend on the processing

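Of 256 values computed under alternatives, 234 stayed within the limit set for a change, which was 1 SD between libraries for levels, percentiles and the ratio, and a factor of 1.5 for counts of genes and CVs. All 63 mean levels of the 9 genes did so under the authors' own scaling, TMM-type scaling, median-of-ratios scaling, summed rows of a symbol and each library left out. The 3 other scalings could move a level little, since their factors relative to library totals ran from 0.995 to 1.005. Summed rows could not move a level, since each of the 9 genes had 1 row. The outcomes of summed rows and of a library left out were fixed in advance but are counted in the 63 and the 234. For a mean of 3 libraries this limit is wide, since leaving out 1 can never move it by 1 SD: the mean of Ftl2 was 17.6 CPM without library 1 and 39.8 CPM without library 2, against 27.6 CPM with all. The light to heavy chain ratio was 1.50 with Ftl1 alone and 1.56 to 1.66 with a library left out, where it could not pass the limit either. Percentiles depend on the symbols they are taken over. Among expressed symbols alone they were 19.8 for Trf, 82.0 for Tfrc, 96.2 for Fth1, 98.1 for Ftl1, 45.6 for Ftl2, 76.3 for Slc11a2, 67.8 for Slc40a1, 73.3 for Steap3 and 93.0 for Ireb2. At 5 CPM in all libraries, 5 uptake genes, 1 macrophage marker and 3 germ cell markers were expressed, and at 0.5 CPM, 5 macrophage and 5 endothelial markers (3 of 6 endothelial markers at 1 CPM).

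With 3 libraries a CV can rest on 1 of them, and its alternatives were chosen after seeing the data. Leaving each out in turn, the CV ran from 3.50% to 13.1% for Trf (lowest without library 3), from 7.66% to 20.7% for Tfrc (lowest without library 1), from 3.08% to 13.1% for Fth1 (lowest without library 2), from 27.8% to 124% for Ftl2 (lowest without library 2), from 0.189% to 1.95% for Slc11a2 and from 2.14% to 5.64% for Steap3 (both lowest without library 3), and from 2.97% to 12.6% for Ireb2 (lowest without library 1). The order of genes per length and the promoter peaks planned at first were not run, for want of transcript lengths and of gene positions in mm9. No paired analysis was possible because the RNA-seq has a single group and no result comes from a test. Depth limits Trf most among the 9 genes: counting alone gives it a CV of 5.26%, followed by Ftl2 with 4.73%.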

Other observations

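Heme genes were expressed throughout. All 9 genes of heme synthesis passed 1 CPM in all libraries, with a median of 45.9 CPM, led by Alas1, the first enzyme of the pathway in most tissues, at 120 ± 22.6 CPM and followed by Alad (103 ± 3.48 CPM). Fech, which inserts iron into the ring and is named after its value was seen, stood at 47.9 ± 1.08 CPM. Alas1 stood at 122, 142 and 96.7 CPM in libraries 1, 2 and 3. The summed fetal Leydig, Sertoli, erythroid, macrophage and endothelial markers all had this order. The endothelial sums of libraries 1 and 2 were nearly equal, at 32.07 and 32.09 CPM, and single Sertoli markers were split between orders. The part of these cell types in the level of Alas1 was not tested. All 8 genes of heme breakdown and transport were expressed as well, with the mitochondrial transporter Abcb10 at 167 ± 3.25 CPM, the inducible heme oxygenase Hmox1 at 90.5 ± 7.89 CPM and Hmox2 at 31.3 ± 1.79 CPM.

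Alas2, known as the red cell form of the first enzyme, stood at 31.6, 26.5 and 35.2 CPM in libraries 1, 2 and 3. Single erythroid markers other than Hba-a2 are named after their values were seen. Of 11 in the table, Alas2 among them, 4 were expressed, and their sum was 145, 186 and 121 CPM. The hemoglobin row Hba-a2 stood at 56.5, 97.5 and 36.5 CPM and Hbb-b1 at 19.5, 30.0 and 19.6 CPM, both highest in library 2, where Alas2 was lowest. The red cell membrane marker Slc4a1 stood at 0.618 ± 0.256 CPM, while the spectrin row Spna1 stood at 30.5 ± 3.56 CPM. Globin genes have near-identical copies that can share reads. Endothelial markers were led by Pecam1 at 15.6 ± 0.997 CPM and germ cell markers by Tdrd9 at 13.9 ± 0.695 CPM.

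Trf and Slc11a2 also had fractional expected counts in every library, and no single row of the table completed either to whole numbers. The rows with which they shared reads were not found. Among 13189 rows with 50 or more counts in each library, 7842 were whole in all 3. Of the 9 members, 5 were whole (Tfrc, Fth1, Slc40a1, Steap3 and Ireb2).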
